A study of Medicago ruthenica with 9 samples.

Results

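The morning clock genes described here are LATE ELONGATED HYPOCOTYL (LHY) and its REVEILLE (RVE) relatives as measured in leaf RNA of the forage legume Medicago ruthenica, a relative of alfalfa. They were chosen by annotation: a unigene was taken when its closest SwissProt entry was LHY, RVE1, RVE5, RVE6 or RVE7, or when its protein description contained REVEILLE or protein LHY, and when it reached 1 TPM in at least 3 libraries. TPM is the reads assigned to a transcript divided by its length and scaled to a common library total. The rule found 9 unigenes among the 52457 of the deposited table, and no further unigene matched the names below the abundance limit. A unigene is the longest transcript of a cluster in a de novo assembly, so 1 gene can be split over several unigenes and several gene copies can be merged in 1.

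The study compared drought-stressed (DS), rewatered (RW) and control (CK) plants, with 3 RNA-seq libraries in each group. All plants were 4 weeks old at the start and had been raised under 16 h of light and 8 h of dark, 8 to a pot. DS plants received no water for 15 days, by which time relative soil moisture was 20%, RW plants were dried in the same manner, given water again and harvested 2 days later, and CK plants were watered every 3 days and kept above 80% soil moisture. All groups came from the same unnamed cultivar, and no mutant or transgene was named. DS and CK leaves were taken on the same day and RW leaves later, so that the harvest day and rewatering cannot be told apart in RW vs. CK or in DS vs. RW. The hour of harvest is not given in the sources used here, and each group was sampled once, so a shift in the daily rhythm of a clock gene and a change in its mean level over the day cannot be told apart in any value below.

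In the plant circadian clock, known best from Arabidopsis, LHY is a MYB-like transcription factor whose transcript peaks around dawn and whose protein represses genes expressed later in the day and in the evening. The evening genes in turn repress LHY, and pseudo-response regulators (PRRs) repress it through the day, which closes the loop. The REVEILLE proteins share the MYB-like domain of LHY, but RVE8 and its close relatives RVE4 and RVE6 activate evening genes together with the LNK coactivators, while RVE1 and RVE7 act mainly in the output of the clock.

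Summed TPM per library lay between 994748 and 996266, which shows the scaling and not the depth. TPM keeps no read counts per unigene, so no counting interval was computed, and the read totals per library that the study lists were not used here. RW replicate 2 stood apart, with 3618 unigenes at 5 TPM or more that were under 0.5 TPM in each other library, against 13 to 166 such unigenes in the other 8 libraries. The summed TPM of 28 leaf photosynthesis unigenes was 20404 to 61297 in DS, 43708 to 60326 in RW and 52780 to 71611 in CK, and that of 28 xylem and secondary wall unigenes was 52.7 to 255 in DS, 131 to 544 in RW and 427 to 1315 in CK. Among the tested xylem unigenes, 9 of 26 were called lower in DS than in CK, against 2.57% of all tested unigenes. Of these 26, 24 had negative log2 fold changes and the median was −2.36. Of the 28 photosynthesis unigenes, 25 reached the limit for testing. In DS vs. CK, 1 of them was called higher and 1 lower, 17 had negative log2 fold changes and the median was −0.70. No xylem marker was at 0 in all libraries of a group, while 3 photosynthesis markers were at 0 throughout DS and 2 throughout CK. Whether the mix of tissues had a part in the results below was not tested. In bulk leaf RNA, fewer cells of a type and less RNA per cell cannot be told apart.

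Of the 9 morning unigenes, 4 were more abundant in drought-stressed leaves than in control leaves. LHY was 10.8 times as abundant, the unigene described as RVE8 was 6.0 times as abundant, and the RVE7 unigenes were 2.59 and 2.60 times as abundant (ratios of means). RVE6, RVE5 and the 3 RVE1 unigenes were not called. After rewatering, LHY and RVE8 were at levels nearer CK than DS, and RVE7 lay between the DS and CK means.

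For the tests, limma was fitted to log2(TPM + 1) of 44538 unigenes, and a unigene was called when its p after Benjamini-Hochberg adjustment was under 0.05 and its log2 fold change exceeded 1 in either direction. In DS vs. CK, 4 of the 9 members were called higher and 0 lower, against a background of 4.96% of all tested unigenes called, 2.39% higher and 2.57% lower. At an unadjusted p under 0.05 and any fold there were 5 members, against 20.6% of all tested unigenes. The median log2 fold change of the members was 0.47, and that of all tested unigenes was −0.19. Median-of-ratios scaling brought that general shift to −0.05 and quantile normalization to −0.04, so that member values are best read relative to it. The DS libraries all lay above the CK libraries for 5 members and below them for none, against 8.86% and 18.1% (together 26.9%) of all tested unigenes.

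**Figure D1:**
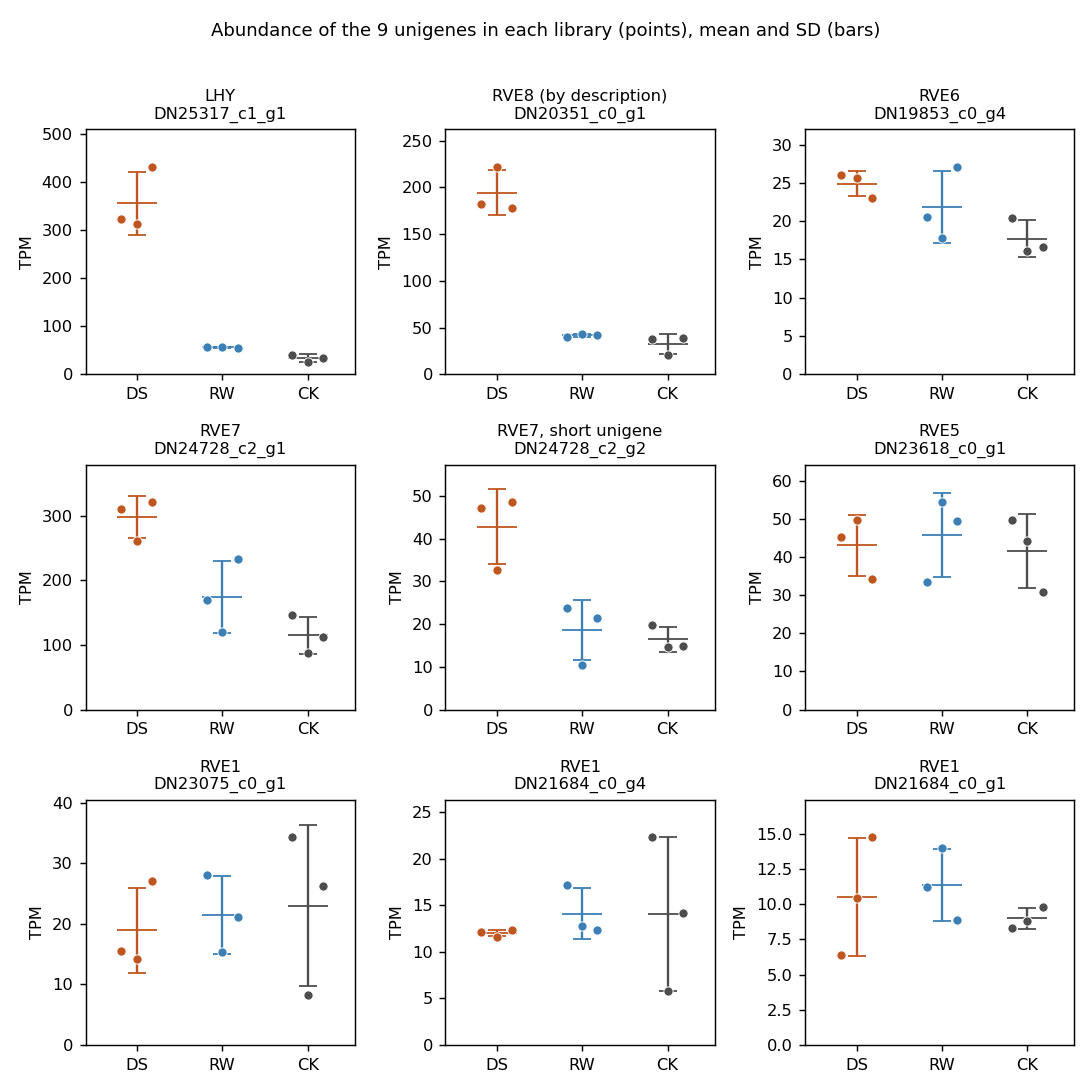
TPM of the 9 unigenes in each library (points) with the mean and SD of the 3 libraries of a group (bars), for DS, RW and CK; each panel has its own linear axis that starts at 0. LHY lay at 313 to 432 TPM in DS and at no more than 56.9 TPM in any RW or CK library, whereas RVE5 and the RVE1 unigenes overlapped between DS and CK.

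LHY (TRINITY_DN25317_c1_g1, a unigene of 3027 bp) had 322, 313 and 432 TPM in DS replicates 1, 2 and 3, 56.9, 55.9 and 54.9 TPM in RW, and 41.0, 24.6 and 33.2 TPM in CK. The 3 groups did not overlap, and the RW libraries were the closest to each other. The means were 356 ± 65.9 TPM in DS, 55.9 ± 0.975 TPM in RW and 33.0 ± 8.20 TPM in CK (SD, n = 3 libraries). On the log2(TPM + 1) scale LHY was higher by 3.41 in DS vs. CK (SE 0.22, 95% interval 2.91 to 3.90, limma adjusted p = 5.30e-05), or by 3.60 relative to the median unigene. By its p-value it ranked 38 among all 44538 tested unigenes in this comparison, and by the size of the increase it ranked 174.

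The RVE8 unigene (TRINITY_DN20351_c0_g1, 2244 bp) is named only by its protein description, since no SwissProt symbol, KEGG orthologue or MYB-like Pfam domain was assigned to it. The RVE6 unigene and the short RVE7 unigene described below also lacked the orthologue and that domain. It had 182, 222 and 178 TPM in DS, 39.8, 43.3 and 42.0 TPM in RW, and 38.1, 20.6 and 38.4 TPM in CK. Each DS library was more than 4 times as high as any library of RW or CK, the RW libraries lay just above those of CK, and CK replicate 2 was the lowest. RVE8 was higher by 2.59 log2 units in DS vs. CK (SE 0.25, 95% interval 2.04 to 3.15, limma adjusted p = 0.000486). RVE6 (TRINITY_DN19853_c0_g4), the close relative of RVE8, had 26.1, 25.6 and 23.1 TPM in DS, 20.6, 17.9 and 27.1 TPM in RW, and 20.45, 16.15 and 16.6 TPM in CK. The DS libraries were above those of CK, but the fitted difference of 0.47 log2 units did not pass the test (95% interval 0.02 to 0.93, limma adjusted p = 0.227). RW overlapped with both groups for RVE6.

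RVE7 (TRINITY_DN24728_c2_g1, 2165 bp), which encodes an output factor of the clock in Arabidopsis, had 311, 261 and 322 TPM in DS, 170, 120 and 233 TPM in RW, and 146, 88.3 and 112 TPM in CK. All DS libraries were above all others, and the RW and CK libraries overlapped. It was higher by 1.39 log2 units in DS vs. CK (SE 0.27, 95% interval 0.77 to 2.00, limma adjusted p = 0.0214). A short unigene of the same assembly cluster, also described as RVE7 (TRINITY_DN24728_c2_g2, 274 bp), had 47.0, 32.7 and 48.5 TPM in DS, 23.8, 10.5 and 21.5 TPM in RW, and 19.8, 14.5 and 15.0 TPM in CK. It showed the same order of groups, with DS above both others and RW overlapping with CK, and was higher by 1.32 log2 units in DS vs. CK (SE 0.31, limma adjusted p = 0.0399). The 2 unigenes may share reads and are not independent of each other: the short one held 0.125 to 0.151 of the TPM of the long one in DS, 0.0876 to 0.140 in RW and 0.134 to 0.165 in CK. Neither RVE7 call was stable to the loss of 1 library. The long unigene was no longer called without DS replicate 1, 2 or 3 or without CK replicate 2 or 3 (log2 fold changes 1.21 to 1.48, adjusted p 0.0516 to 0.0774 by limma). The short unigene was no longer called without any single DS or CK library or without RW replicate 3 (1.22 to 1.5, adjusted p 0.0577 to 0.128 by limma), so that the number of members called higher was 2 without any of the 5 libraries first named.

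The remaining 4 unigenes were lower in abundance than LHY and RVE7 in drought-stressed leaves and were not called in any comparison. RVE5 (TRINITY_DN23618_c0_g1) had 45.3, 49.8 and 34.3 TPM in DS, 33.5, 54.5 and 49.5 TPM in RW, and 49.7, 44.1 and 30.8 TPM in CK. Its groups overlapped throughout, and its difference in DS vs. CK was 0.06 log2 units with a 95% interval of −0.52 to 0.65, which leaves out a change as large as that of LHY or RVE8. RVE1, whose protein promotes auxin synthesis in Arabidopsis, was the best match of 3 unigenes. The first (TRINITY_DN23075_c0_g1) had 15.5, 14.2 and 27.05 TPM in DS, 28.03, 15.3 and 21.15 TPM in RW, and 34.3, 8.30 and 26.3 TPM in CK. The spread within CK was wide (23.0 ± 13.3 TPM), and the interval of the DS vs. CK difference was wide as well (−0.12 log2 units, 95% interval −1.18 to 0.95). The second (TRINITY_DN21684_c0_g4, 479 bp) had 12.15, 11.6 and 12.3 TPM in DS, 17.2, 12.7 and 12.3 TPM in RW, and 22.3, 5.74 and 14.15 TPM in CK. Here too CK replicate 1 was the highest library and CK replicate 2 the lowest. The third (TRINITY_DN21684_c0_g1) had 6.39, 10.4 and 14.7 TPM in DS, 11.25, 14.0 and 8.86 TPM in RW, and 8.33, 8.81 and 9.82 TPM in CK, with DS spanning the whole range. The DS vs. CK differences of the second and the third were −0.04 (95% interval −0.92 to 0.84) and 0.14 log2 units (−0.53 to 0.82). Under median-of-ratios scaling the values of the first and second turned positive, at 0.06 and 0.14, and they were also positive after quantile normalization.

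**Figure D2:**
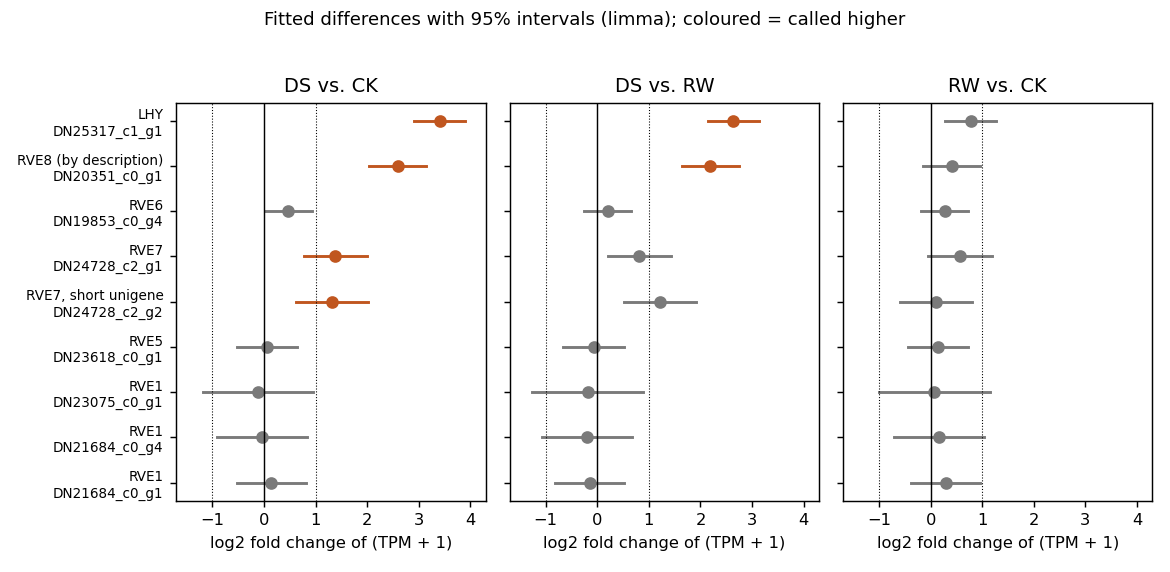
Fitted log2 fold changes of (TPM + 1) with 95% intervals from limma for the 9 unigenes in the 3 comparisons of groups; coloured points were called higher and dotted lines mark a log2 fold change of 1 in either direction. LHY and RVE8 stand at 3.41 and 2.59 in DS vs. CK and at 2.63 and 2.19 in DS vs. RW, and no member was called in RW vs. CK.

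The order of the members by abundance also differed between the groups. In DS, LHY (356 TPM) and RVE7 (298 TPM) were first and second and overlapped with each other, RVE8 (194 TPM) came next and overlapped with neither, and RVE5 and the short RVE7 unigene followed at 43.1 and 42.8 TPM. In RW, RVE7 was first at 174 TPM, apart from all others, followed by LHY (55.9 TPM), RVE5 (45.8 TPM) and RVE8 (41.7 TPM), of which RVE5 overlapped with RVE8. In CK, RVE7 was first at 115 TPM, also apart from the rest, and RVE5 (41.6 TPM), LHY (33.0 TPM) and RVE8 (32.4 TPM) overlapped with each other. LHY held 33.3% to 39.5% of the summed TPM of the 9 unigenes in DS libraries, 11.7% to 16.2% in RW and 10.7% to 11.2% in CK. That sum was 969, 940 and 1091 TPM in DS, 401, 344 and 470 TPM in RW, and 380, 231 and 296 TPM in CK.

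Ratios between members of a library do not depend on how libraries were scaled. LHY relative to RVE5 was 7.12, 6.29 and 12.6 in DS, 1.70, 1.03 and 1.11 in RW, and 0.825, 0.558 and 1.08 in CK. LHY thus outnumbered RVE5 in each DS library by a factor that no RW or CK library came near, and in CK the order of the 2 varied among libraries. RVE8 relative to RVE5 was 4.03, 4.46 and 5.20 in DS, 1.19, 0.794 and 0.847 in RW, and 0.767, 0.466 and 1.24 in CK, again with DS apart and RW within the range of CK. LHY relative to RVE7 was 1.04, 1.20 and 1.34 in DS, 0.335, 0.465 and 0.236 in RW, and 0.281, 0.279 and 0.297 in CK. LHY was therefore the more abundant of the pair in each DS library and the less abundant in each RW and CK library. By contrast, RVE7 relative to RVE5 was 5.25 to 9.38 in DS, 2.21 to 5.07 in RW and 2.00 to 3.62 in CK, with DS and RW apart by a narrow margin only.

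**Figure D3:**
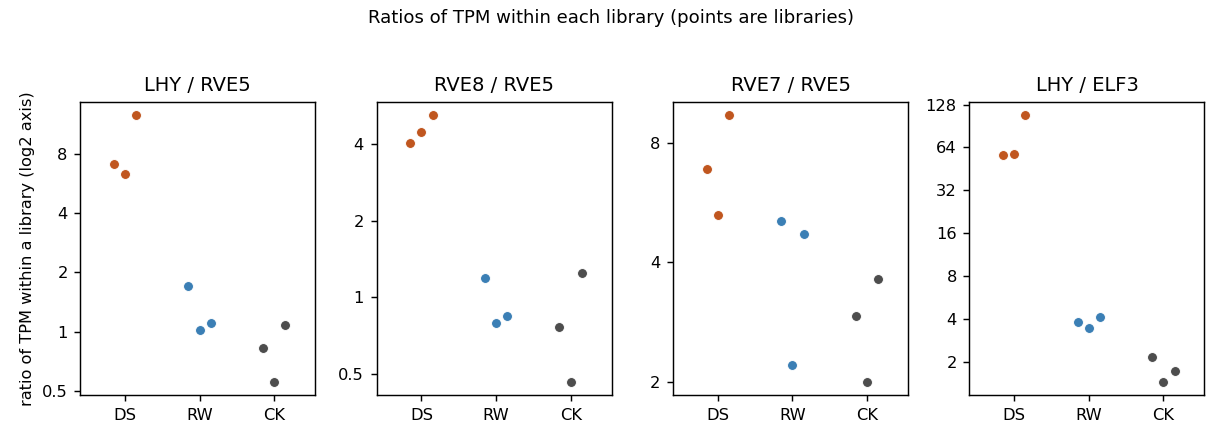
Ratios of TPM within each library on a log2 axis, for LHY, RVE8 and RVE7 over RVE5 and for LHY over ELF3. Points are the 3 libraries of DS, RW and CK. ELF3 here is the unigene TRINITY_DN21601_c0_g1, and another unigene named ELF3 was not called. The DS libraries lie above all others in each panel, by the most for LHY over ELF3 (56.7 to 107.9 in DS, 3.46 to 4.12 in RW and 1.46 to 2.18 in CK).

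The comparison of drought-stressed with rewatered leaves asked which genes differed between leaves still dry and leaves harvested 2 days after water was given again. LHY was higher by 2.63 log2 units in DS vs. RW (SE 0.22, 95% interval 2.14 to 3.13, limma adjusted p = 0.000276, ratio of means 6.36), and RVE8 by 2.19 (SE 0.25, 95% interval 1.63 to 2.74, limma adjusted p = 0.00140, ratio of means 4.66). These were 2 of the 9 members called higher, with 0 called lower, against 2.15% and 1.79% (together 3.94%) of all tested unigenes, and 4 members had an unadjusted p under 0.05, against 18.3% of all tested unigenes. RVE7 was at 298 ± 32.3 TPM in DS and 174 ± 56.4 TPM in RW with no overlap, but its difference of 0.82 log2 units was not called (95% interval 0.20 to 1.43, limma adjusted p = 0.148), nor was it under any of 20 alternative settings. The short RVE7 unigene differed by 1.21 log2 units and narrowly missed the threshold (limma adjusted p = 0.0612), and was called under 4 of the alternatives. The other 5 members had log2 differences between −0.20 and 0.20. DS and RW did not overlap for 5 members, 4 with DS higher and 1, the second RVE1 unigene, with DS lower, against 8.01% and 15.7% (together 23.7%) of all tested unigenes. For that RVE1 unigene the groups nearly touched, at 12.29 TPM in the highest DS library and 12.32 TPM in the lowest RW library. DS vs. CK and DS vs. RW share the DS libraries, so that values of the 2 comparisons are not independent.

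In RW vs. CK, no member was called by limma in either direction, against 0.00225% of all tested unigenes (1 of 44538), and 1 member, LHY, had an unadjusted p under 0.05, against 6.5% of all tested unigenes. LHY was higher in RW by 0.77 log2 units (95% interval 0.28 to 1.27, unadjusted p = 0.00613, limma adjusted p = 0.714), with 55.9 TPM in RW and 33.0 TPM in CK and no overlap, and ranked 380 of all tested unigenes by p. RVE8 was at 41.7 ± 1.76 TPM in RW and 32.4 ± 10.2 TPM in CK, also with no overlap (0.41 log2 units, 95% interval −0.15 to 0.96). For these 2 members the RW libraries all lay above those of CK, and for 0 members below, against 5.35% and 6.44% (together 11.8%) of all tested unigenes. The fitted difference was positive for 9 of 9 members, with a median of 0.27 against −0.02 over all tested unigenes, but the members are not independent of each other. As a share of the DS minus CK difference on the log2 scale, 22.7% remained in RW for LHY, 15.7% for RVE8, 41.2% for RVE7 and 7.96% for the short RVE7 unigene. No error was computed for these shares, and no order is read from them.

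Across the 9 libraries, LHY and RVE8 had nearly the same profile (Pearson's r of log2(TPM + 1) 0.98), and r was 0.85 over the 6 RW and CK libraries alone. LHY and RVE7 had r of 0.90 and 0.77 over the same sets, and RVE7 and RVE6 had 0.92 and 0.97. LHY and RVE5 were unrelated by this measure (0.00 and 0.23). Among the RVE1 unigenes, the 2 described only as a myb transcription factor followed each other (0.89 over 9 libraries and 0.96 over 6), although they belong to different assembly clusters, whereas the third had r of 0.05 and 0.07 with the second, which is of its own cluster. These coefficients describe libraries that share groups and scaling, and were not tested.

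The unigenes whose profile over the 9 libraries was most like that of LHY were ranked among the 6375 described unigenes that averaged 20 TPM or more over the libraries. The closest was PUMP5 (TRINITY_DN21990_c1_g1), a mitochondrial uncoupling protein, with r of 0.99, and means of 1696 TPM in DS, 228 TPM in RW and 168 TPM in CK. Its r was also 0.97 over the 6 RW and CK libraries, higher than for the next 4 unigenes, which were inactive beta-amylase BAM9, a CEP250-like protein, S-adenosylmethionine decarboxylase SAMDC of polyamine synthesis and fatty acid desaturase FAD4 (r of 0.99 each over 9 libraries and 0.79 to 0.85 over 6). The most opposite was RD21A (TRINITY_DN22347_c0_g1), a papain-type cysteine protease known in Arabidopsis for its induction by dehydration, with r of −0.998 over 9 libraries and −0.996 over 6. RD21A averaged 706 TPM in DS, 1763 TPM in RW and 2249 TPM in CK, a log2 fold change of −1.67 in DS vs. CK. It was followed by the plastid protein pTAC5 and the 14-3-3 protein TFT9 (both −0.97). For RVE8 the closest were CONSTANS-LIKE 4, JINGUBANG, a LURP-one-related protein and PLASTID MOVEMENT IMPAIRED 1, and LHY itself completed the first 5 (r of 0.98 to 0.99). The most opposite to RVE8 were pTAC5, RD21A and RBCX1 (r of −0.978, −0.974 and −0.972). RBCX1 (TRINITY_DN21907_c0_g1), a chaperone of rubisco assembly, averaged 2.54 TPM in DS, 44.8 TPM in RW and 49.3 TPM in CK. With 9 libraries in 3 groups, a high r can come mostly from the difference between DS and the other groups.

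The other genes of the clock were taken from lists of names. Their counts are to be read against all tested unigenes, of which 2.39% were called higher and 2.57% lower in DS vs. CK. In DS vs. RW these shares were 2.15% and 1.79%. Of the pseudo-response regulators, which repress LHY in Arabidopsis, 5 of 11 unigenes were called lower and 0 higher in DS vs. CK, and the same counts were found in DS vs. RW. Their median log2 fold changes were −1.80 and −1.78. In DS vs. CK, 7 of the 11 values were negative and 4 were positive, none of the 4 called (0.05 to 0.32, limma adjusted p 0.597 to 0.956). One of these, named PRR95 (TRINITY_DN24677_c0_g3), averaged 38.0 ± 9.58 TPM in DS, 44.3 ± 9.58 TPM in RW and 31.0 ± 10.8 TPM in CK. The unigene named APRR5 and described as APRR9 (TRINITY_DN22738_c0_g1) had 11.5, 5.33 and 7.98 TPM in DS, 54.6, 116 and 74.0 TPM in RW, and 47.4, 57.25 and 65.8 TPM in CK (DS vs. CK −2.68, limma adjusted p = 0.00188; DS vs. RW −3.14). PRR37, described as APRR7, averaged 25.5 ± 7.42 TPM in DS, 97.6 ± 17.98 TPM in RW and 100.1 ± 18.2 TPM in CK (−1.95 in DS vs. CK, limma adjusted p = 0.00273). APRR1, the TOC1 protein that is expressed in the evening and represses LHY, had 1.05 ± 0.249 TPM in DS, 13.3 ± 7.35 TPM in RW and 7.57 ± 1.36 TPM in CK in its unigene of smallest p (TRINITY_DN25585_c1_g2, −2.06 in DS vs. CK), a call that was lost without CK replicate 2 (limma adjusted p = 0.0517). The unigene named APRR7 and described as APRR3 (TRINITY_DN26257_c2_g1) averaged 70.9 TPM in DS, 174 TPM in RW and 172 TPM in CK (−1.26 in DS vs. CK). It was no longer called in DS vs. CK without DS replicate 2 or CK replicate 1 or 3 (limma adjusted p 0.0519 to 0.0724), nor in DS vs. RW without DS replicate 2 or RW replicate 1 or 3 (0.0530 to 0.0711). The number of PRR unigenes called lower was 3 without DS replicate 2 in both comparisons, and 3 in DS vs. CK without CK replicate 1, 2 or 3.

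The evening complex, formed by ELF3, ELF4 and LUX and active as a repressor at night, was represented by 8 unigenes, of which 4 were called lower in DS vs. CK and 3 in DS vs. RW, with 0 higher. ELF4 (TRINITY_DN15036_c0_g1) had 9.92, 8.14 and 4.10 TPM in DS, 46.3, 82.7 and 45.3 TPM in RW, and 96.03, 81.3 and 38.2 TPM in CK (−3.09 in DS vs. CK, limma adjusted p = 0.00311, and −2.83 in DS vs. RW). ELF3 (TRINITY_DN21601_c0_g1) had 5.69, 5.40 and 4.00 TPM in DS, 14.8, 16.2 and 13.35 TPM in RW, and 18.8, 16.9 and 19.2 TPM in CK (−1.69, limma adjusted p = 0.00198, and −1.40). Both were low in each DS library, with no overlap with RW or CK. A second unigene named ELF3 (TRINITY_DN17691_c0_g3) was at 9.90 ± 1.74 TPM in DS, 11.2 ± 2.18 TPM in RW and 9.01 ± 0.0777 TPM in CK. It was not called (0.11 in DS vs. CK, limma adjusted p = 0.830). The unigene named LUX (TRINITY_DN23704_c0_g1), whose protein description is MYBC1, was at 4.77 ± 1.48 TPM in DS, 15.5 ± 2.06 TPM in RW and 18.9 ± 3.72 TPM in CK (−1.80 and −1.54). A unigene named BOA and described as PCL1, another name of LUX (TRINITY_DN21160_c0_g1), was at 7.30 ± 1.72 TPM in DS, 14.4 ± 2.10 TPM in RW and 14.9 ± 2.86 TPM in CK and was not called (−0.95 in DS vs. CK, limma adjusted p = 0.0534). One EFL4 unigene (TRINITY_DN12626_c0_g1) was called in DS vs. CK only (−1.57, limma adjusted p = 0.0255), and not without DS replicate 1 or 2 or CK replicate 1 or 3 (limma adjusted p 0.0751 to 0.0977). The other EFL4 unigene (TRINITY_DN17596_c2_g1) was more abundant, at 91.3 ± 9.06 TPM in DS, 72.2 ± 11.2 TPM in RW and 86.5 ± 13.0 TPM in CK, and was not called (0.08 in DS vs. CK, limma adjusted p = 0.858). LHY relative to the first ELF3 unigene (TRINITY_DN21601_c0_g1), a morning gene over an evening gene of the same library, was 56.7, 58.0 and 107.9 in DS, 3.84, 3.46 and 4.12 in RW, and 2.18, 1.46 and 1.73 in CK. The 3 groups did not overlap in this ratio. No ratio to the second ELF3 unigene, which was not called, was computed.

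Of the 3 unigenes of GIGANTEA (GI) and its partners, the ADAGIO F-box proteins, blue-light receptors that mark clock and flowering proteins for degradation, 1 was called lower in DS vs. CK and 2 in DS vs. RW. ADO3, the FKF1 protein, averaged 2.80 ± 2.05 TPM in DS, 29.9 ± 8.44 TPM in RW and 29.4 ± 10.0 TPM in CK (−3.07 and −3.11, limma adjusted p = 0.00273 in DS vs. CK). GI was at 33.7 ± 10.6 TPM in DS, 78.01 ± 15.0 TPM in RW and 63.6 ± 11.8 TPM in CK, and was called in DS vs. RW (−1.22) but not in DS vs. CK (−0.93, limma adjusted p = 0.0849). The call in DS vs. RW was lost under 11 of 20 alternatives, among them the loss of DS replicate 2 or 3, of any RW library, or of CK replicate 2 or 3 (limma adjusted p 0.0526 to 0.122), which left 1 unigene of this list called.

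The LNK coactivators, which bind RVE8 in Arabidopsis, were represented by 4 unigenes. All of them had higher values in each DS library than in any CK or RW library, and 1 was called. Over all tested unigenes, the DS libraries lay above those of CK for 8.86% and above those of RW for 8.01%. For the LNK1 unigenes the margin over RW was slight, with 70.16 and 44.76 TPM in the lowest DS library and 67.58 and 43.92 TPM in the highest RW library. LNK3 (TRINITY_DN15663_c0_g2) had 136, 97.8 and 192 TPM in DS, 30.8, 31.0 and 31.8 TPM in RW, and 23.1, 5.15 and 17.1 TPM in CK. Its groups lay in the same order as those of LHY, with no overlap and with RW libraries close together. It was higher by 3.31 log2 units in DS vs. CK (SE 0.45, limma adjusted p = 0.00363) and by 2.10 in DS vs. RW (limma adjusted p = 0.0336), where the call was lost without any single DS or RW library (limma adjusted p 0.0572 to 0.103, 0 LNK unigenes called). In RW vs. CK it differed by 1.21 log2 units (unadjusted p = 0.0244, limma adjusted p = 0.745). The other 3, named LNK2, LNK1 and LNK1, had log2 differences of 0.79, 0.60 and 0.71 in DS vs. CK. Their limma adjusted p was 0.0699, 0.115 and 0.0386, and the last missed only the minimum fold. In DS vs. RW their differences were 0.54, 0.35 and 0.28 (limma adjusted p 0.224, 0.388 and 0.409).

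The cyclic DOF factors, repressors of flowering genes whose transcripts peak in the morning in Arabidopsis, had calls in the direction of LHY: 5 of 9 unigenes were called higher and 0 lower in DS vs. CK and in DS vs. RW. CDF3 (TRINITY_DN19182_c0_g1) had 20.0, 28.4 and 17 TPM in DS, 2.52, 1.95 and 2.44 TPM in RW, and 2.70, 3.13 and 1.81 TPM in CK (2.67 log2 units in DS vs. CK, limma adjusted p = 0.00101, and 2.76 in DS vs. RW). CDF2 (TRINITY_DN19901_c0_g1) averaged 10.9 ± 1.83 TPM in DS, 1.23 ± 0.611 TPM in RW and 0.547 ± 0.507 TPM in CK, and a second CDF2 unigene (TRINITY_DN24307_c0_g2) 22.5 ± 5.44 TPM in DS, 6.95 ± 0.174 TPM in RW and 7.48 ± 0.675 TPM in CK. The DS libraries of these 3 unigenes lay well above all others, and RW overlapped with CK. Further unigenes named CDF3 were more abundant and were not called. TRINITY_DN24778_c0_g1 averaged 50.5 TPM in DS, 52.0 TPM in RW and 37.4 TPM in CK (0.48 in DS vs. CK, limma adjusted p = 0.374). TRINITY_DN19901_c0_g2 averaged 27.9 TPM in DS, 19.6 TPM in RW and 18.5 TPM in CK (0.58 in DS vs. CK, limma adjusted p = 0.200). CDF1 (TRINITY_DN21806_c1_g3) was uneven within DS, at 30.7, 5.84 and 16.2 TPM, against 1.14 to 1.91 TPM in RW and 1.24 to 1.99 TPM in CK (2.59 in DS vs. CK). Its call was lost in DS vs. CK without DS replicate 1 or 3 or any CK library (limma adjusted p 0.0535 to 0.0609), and in DS vs. RW without DS replicate 1 or 3 or RW replicate 1 or 3 (0.0529 to 0.0707). In each of these cases 3 of the 9 unigenes were called. The list also held a unigene with values in the opposite direction, named CDF4 and described as DOF1.5 (TRINITY_DN25981_c0_g2), at 0.647 ± 0.258 TPM in DS, 1.12 ± 1.02 TPM in RW and 3.32 ± 0.596 TPM in CK. Its DS and CK libraries did not overlap, but the difference of −1.40 log2 units was not called (limma adjusted p = 0.0745).

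Of 6 phytochrome-interacting factors, bHLH proteins linked to the clock and to light, 0 were called by limma in any comparison, also at an unadjusted p with the same minimum fold, and the median in DS vs. CK was 0.01 log2 units. Of 12 other clock-associated unigenes, 1 was called lower in DS vs. CK and in DS vs. RW, a TIME FOR COFFEE fragment (TRINITY_DN25677_c0_g6) at 20.0 ± 0.741 TPM in DS, 45.1 ± 4.58 TPM in RW and 50.3 ± 13.0 TPM in CK. Its call was lost in DS vs. CK without CK replicate 3 (limma adjusted p = 0.0533), and in DS vs. RW without any DS library or RW replicate 1 or 3 (0.0551 to 0.0737). In RW vs. CK no unigene of any of these lists was called by limma. The lists held 11, 8, 3, 4, 9, 6 and 12 tested unigenes, in the order described. Of these, 2 were past an unadjusted limma p under 0.05 with the same minimum fold, 1 LNK higher and 1 cyclic DOF factor lower in RW. Of all 44538 tested unigenes, 866 were higher and 1068 lower in RW by the same rule, so such differences were not particular to these lists.

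**Figure D4:**
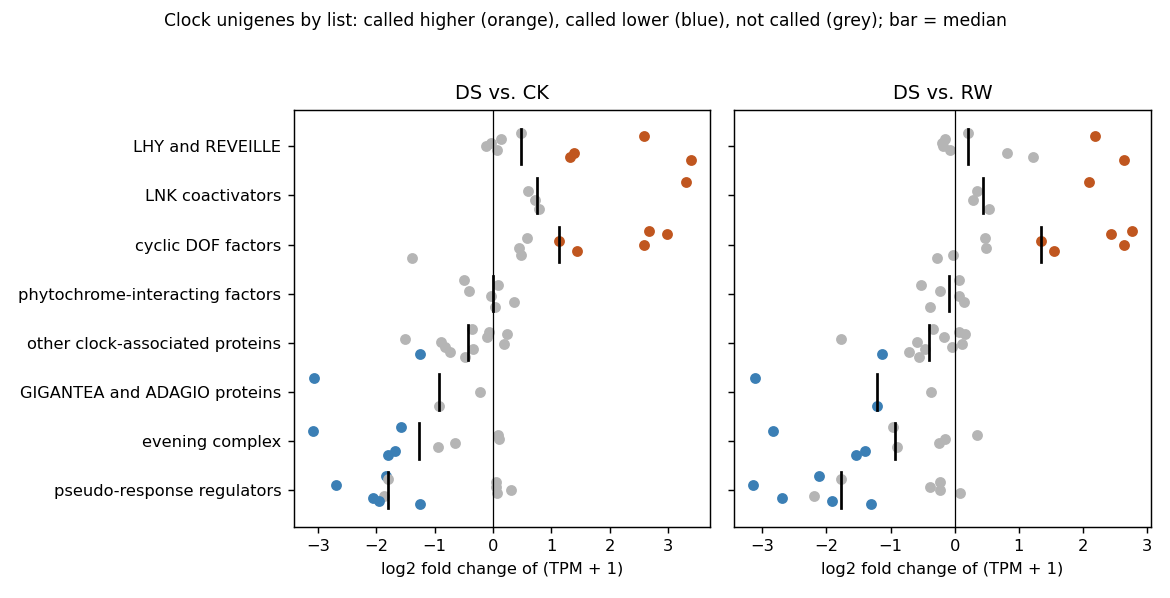
Log2 fold changes of (TPM + 1) of each tested clock unigene in DS vs. CK (left) and in DS vs. RW (right), grouped by list; orange points were called higher, blue points lower and grey points were not called by limma, and black bars are list medians. Calls in the LHY and REVEILLE, LNK and cyclic DOF lists are all to the right of 0, and those of the pseudo-response regulators, evening complex, GIGANTEA and ADAGIO and other clock-associated lists are all to the left.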

How the data were processed

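The authors deposited 1 table of TPM values for 52457 unigenes in 9 libraries, with unigene lengths and annotation. Cutadapt trimming came first per the study's methods, after which reads were assembled de novo with Trinity, and quantified with Salmon; the submitters' processing notes also name HISAT2 2.0 and StringTie 1.3.0. No read counts were used here and TPM keeps no depth, so precision rests on the 3 libraries of a group. The labels call them biological replicates and do not state which plants or pots each came from, so the p-values speak of the spread among these libraries only.

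TPM values were analysed as log2(TPM + 1), on which fold changes of low unigenes are understated. The test covered 44538 unigenes that reached 1 TPM in 3 or more libraries and left out 7919, and used limma 3.58.1 (R 4.3.3, with statmod 1.5.0) in 1 fit of 3 group means with trended, robust empirical Bayes (residual df 6, median prior df 3.54), and p-values were two-sided and adjusted by Benjamini-Hochberg over all tested unigenes. The study's own threshold was an unadjusted p, which was run as an alternative. An exact permutation test of 3 against 3 cannot give a p under 0.1. The steps were tested on simulated data.

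The members, the clock lists and the naming rule were chosen with earlier results of these data known. All members are named, as are, of each clock list, up to 4 called unigenes with the smallest p, and the 5 unigenes most like and 3 most opposite to LHY and to RVE8 by Pearson's r. The LNK2, LNK1, PRR95, BOA, CDF4, second ELF3, second EFL4 and further CDF3 unigenes were named after their values were seen. List names were matched in the SwissProt symbol or the description, and symbols of unrelated proteins that coincide with clock names were removed after the table was read. Alternatives were 2 scalings, 2 pseudocounts, 2 filters, a fit to only 6 libraries, a block for the replicate number, an unadjusted p, no minimum fold, no trend or robust option, and each library left out in turn. Sequences of the members were not used here.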

Additional observations from a re-analysis of the deposited data

How the results depend on the processing

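LHY and RVE8 were called in DS vs. CK and in DS vs. RW under 20 of 20 alternatives, with log2 fold changes of 3.22 to 3.59 and 2.41 to 2.79 for LHY and of 2.31 to 2.78 and 2.06 to 2.34 for RVE8. The number of members called higher in DS vs. CK was 2 to 4 with each library left out (2 without DS replicate 1, 2 or 3 or CK replicate 2 or 3). The RVE7 calls in DS vs. CK held in 15 of 20 alternatives for the long unigene and in 12 for the short one, which was also lost with no trend and no robust option (limma adjusted p = 0.0669). The short one became called in DS vs. RW under median-of-ratios scaling, a minimum of 5 TPM, an unadjusted p and the replicate block. With the replicate number as a block, 4 members were higher in DS vs. CK, 3 in DS vs. RW and 0 in RW vs. CK, and of the clock unigenes named GI lost its call in DS vs. RW (limma adjusted p = 0.0684). The labels do not say whether the numbers pair the libraries. Deviations of same-numbered libraries correlated at −0.0945 to 0.0627, which cannot settle whether they were grown or prepared together. The 16 profile correlations, which were picked as the most extreme, had sizes of 0.934 to 0.999 under 13 settings chosen after seeing the data.

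Uncalled members near 0 changed sign. Median-of-ratios scaling gave 0.0634 and 0.14 log2 units for the first and second RVE1 unigenes in DS vs. CK and 0.0779 for RVE5 in DS vs. RW, and quantile normalization gave 0.0246 and 0.12 for the same RVE1 unigenes and 0.0154 for the third in DS vs. RW. With each library left out, DS vs. CK ran from −0.70 to 0.27, −0.53 to 0.36 and −0.12 to 0.43 for the 3 RVE1 unigenes and from −0.13 to 0.21 for RVE5. DS vs. RW ran from −0.46 to 0.0142 for the first RVE1, −0.41 to 0.14 for the third and −0.28 to 0.0787 for RVE5. RW vs. CK ran from −0.51 to 0.46 and −0.33 to 0.56 for the first and second RVE1, −0.0600 to 0.34 for RVE5, −0.10 to 0.45 for the short RVE7, −0.65 to 0.000542 for ELF4, −0.25 to 0.0305 for CDF3, −0.23 to 0.27 for ADO3, −0.16 to 0.0572 for CDF1, −0.33 to 0.0460 for TIME FOR COFFEE, −0.18 to 0.12 for PRR37 and −0.15 to 0.22 for APRR7. The cause was not tested.

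Other settings ended a few clock calls in DS vs. RW: LNK3 under quantile normalization and with no trend (limma adjusted p 0.0573 and 0.0547), GI and CDF1 with only the 6 libraries of the pair (0.0831 and 0.0539), and ELF3 and TIME FOR COFFEE with a pseudocount of 5 (log2 fold changes −0.98 and −0.998). GI and TIME FOR COFFEE also lost theirs with no trend (limma adjusted p 0.0755 and 0.0513). Under median-of-ratios scaling both were lost too, GI by its limma adjusted p of 0.0543 and TIME FOR COFFEE by its log2 fold change of −0.98. Over all tested unigenes, the higher and lower calls were 1066 and 1143 in DS vs. CK and 957 and 798 in DS vs. RW. At an unadjusted p they were 2377 and 3981, and 2204 and 3150, and in RW vs. CK 866 and 1068. The lower calls fell to 667 and 473 with a pseudocount of 5, 727 in DS vs. CK with the block and 463 in DS vs. RW with the pair alone. With 1 library left out, the higher and lower calls in DS vs. CK were 570 and 352 without CK replicate 3 and 644 and 417 without DS replicate 2, and the lower calls 586 without DS replicate 1 and 518 without CK replicate 2. In DS vs. RW they were 519 and 315 without RW replicate 3 and 578 and 384 without DS replicate 2, and the lower calls 513 without DS replicate 1 and 450 without RW replicate 1. The lack of read counts, 3 libraries a group and a single harvest limit what small differences can show.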

Other observations

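Within the control group, CK replicate 2 was the lowest of the 3 libraries for 7 of the 9 morning unigenes and the highest for 0, whereas over all tested unigenes it was the lowest for 24.5% and the highest for 40.7%. CK replicate 1 was the highest for 7 of the 9, and over all tested unigenes for 27.1% (the lowest for 41.3%). The values were 41.0, 24.6 and 33.2 TPM for LHY, 38.1, 20.6 and 38.4 TPM for RVE8, 146, 88.3 and 112 TPM for RVE7, and 34.3, 8.30 and 26.3 TPM for the first RVE1 unigene (TRINITY_DN23075_c0_g1) in CK replicates 1, 2 and 3. LNK3 had 23.1, 5.15 and 17.1 TPM in the same libraries. Among the 12 other clock-associated unigenes, CK replicate 2 was the highest for 10. These members are not independent of each other, the pattern was noticed in the data, and it was not tested.

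The KEGG orthologue assigned to LHY was carried by 6 of the 9 members, among them all 3 RVE1 unigenes, RVE5 and RVE7, and by 7 unigenes of the whole table. The annotation by orthologue therefore does not separate LHY from its REVEILLE relatives. In DS vs. CK, LHY differed by 3.41 log2 units, and the REVEILLE members with the same orthologue by −0.12 (the first RVE1 unigene) to 1.39 (RVE7). Outside the 9 members, 75 tested unigenes carried the gene ontology term for circadian rhythm. Of these, 7 were called higher and 14 lower in DS vs. CK, and 8 and 14 in DS vs. RW (limma), with medians of −0.22 and −0.14 log2 units. Over all tested unigenes, 2.39% were called higher and 2.57% lower in DS vs. CK, and 2.15% and 1.79% in DS vs. RW. LHY, the long RVE7 unigene and the 3 RVE1 unigenes also carry the term but are left out of these counts. Unigenes of the clock lists above are included, among them LNK3, ELF3, ADO3 and the pseudo-response regulators called in DS vs. CK. The counts are therefore not separate from those of the lists.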
